A study of Mus musculus with 28 samples.

Results

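This account covers what a 4-hour silencing of network activity did to nascent transcription in mouse forebrain cultures that carried an shRNA against Rai1. The group treated with tetrodotoxin (TTX), shRai1_TTX, was set against the group given vehicle, shRai1_Veh, with 3 libraries in each. The genes described are the 12333 of 22919 listed genes whose mean normalized count, an average over all 16 Bru-seq libraries after scaling for depth, was at least 50. Triqk, with a mean of 50.03, was the lowest gene inside that limit, and Il4ra, with 49.99, was the highest outside it.

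Each library came from CD1 mouse embryos at embryonic day 18, whose cortices and hippocampi were pooled from groups matched for sex ratio, so that a replicate is a pool of animals and not 1 animal. Per the labels the cultures held neurons, astrocytes and oligodendrocyte precursor cells. On day 14 in vitro they were infected with a lentivirus that carried an shRNA against Rai1 (shRai1) or a control shRNA (shCtrl), and on day 17 they received TTX at 1 µM, bicuculline (BIC) at 20 µM or water as vehicle for 4 hours. Bromouridine at 2 mM was present for the last 20 minutes and marked the RNA made in that window, which was then captured with an antibody and sequenced (Bru-seq). The labels of the shCtrl groups give the same steps except for the target of the shRNA. These groups had 2 libraries in vehicle (replicates 1 and 2) and 3 in TTX (replicates 1 to 3). Replicate 3 thus has no vehicle library in shCtrl, while both shRai1 groups compared here hold replicates 1 to 3. The shRai1_BIC group had 3 libraries.

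TTX closes voltage-gated sodium channels, so that neurons stop firing action potentials. In active neurons calcium entering through synaptic receptors and channels starts kinase cascades that switch on a first wave of transcription factors, the immediate-early genes, and then a second wave of secreted factors, synaptic proteins and enzymes. Rai1 encodes a nuclear protein that binds chromatin, and loss of 1 copy in people causes Smith-Magenis syndrome. The question that the comparison addresses is which genes lose or gain transcription on silencing in cultures that carry an shRNA against Rai1.

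The deposited tables hold a mean count, a log2 change and its standard error (SE) per gene, and no value per library, so that the spread between replicates enters only through the SE. The mean level of each group was computed here from those numbers and is on the scale of normalized counts. Deposited log2 changes lie near 0 where reads are few, and the computed levels follow them, so low levels are approximate. These levels are not divided by gene length, so they compare groups and not genes. A gene is called when the adjusted p in the authors' deposited table is under 0.05, and the depth of the single libraries is not known here.

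Rai1 itself (chr11:59918515-60034106 in mm9, an interval shared with another listed gene) went from 6766 to 5857 on the computed scale in the shRai1 arm. It fell by 0.21 on the log2 scale in the authors' deposited table (SE 0.0642, adjusted p = 0.00598). In shCtrl the computed level went from 6041 to 6386, with a deposited log2 change of 0.08 (SE 0.0731, adjusted p = 0.475) in the authors' deposited table. The difference between the arms was −0.29 (SE 0.0973, adjusted p = 0.178). In vehicle, the shRai1 cultures differed from shCtrl by 0.16 for Rai1 in the authors' deposited table (SE 0.073, adjusted p = 0.357). An shRNA acts on mature mRNA after it is made, and newly made RNA therefore gives no check of the knockdown.

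TTX changed the transcription of a large share of the genes measured, and over all of them downward more often and by more than upward. Of the 12333 genes 4466 were called, which is 36.2%, against 30.5% of the 15464 genes with an adjusted p in the whole table. Lower transcription was called for 2548 genes (20.7%) and higher transcription for 1918 (15.6%). In each class of mean count under 500 rises were called more often than falls, with 18.4% and 15.2% at a mean of 200 to 500. Among called genes the median log2 change was −0.43 for those lower and 0.41 for those higher, and the median over all 12333 was −0.01. The median SE was 0.106, and 80% of the genes had an SE between 0.0726 and 0.190. A fall of at least 1 on the log2 scale was called for 241 genes (1.95%) and a rise of that size for 75 (0.608%). At a size of 2 the numbers were 37 and 1. A further 256 of 8859 tested genes under the mean count limit were called and are not described.

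**Figure D1:**
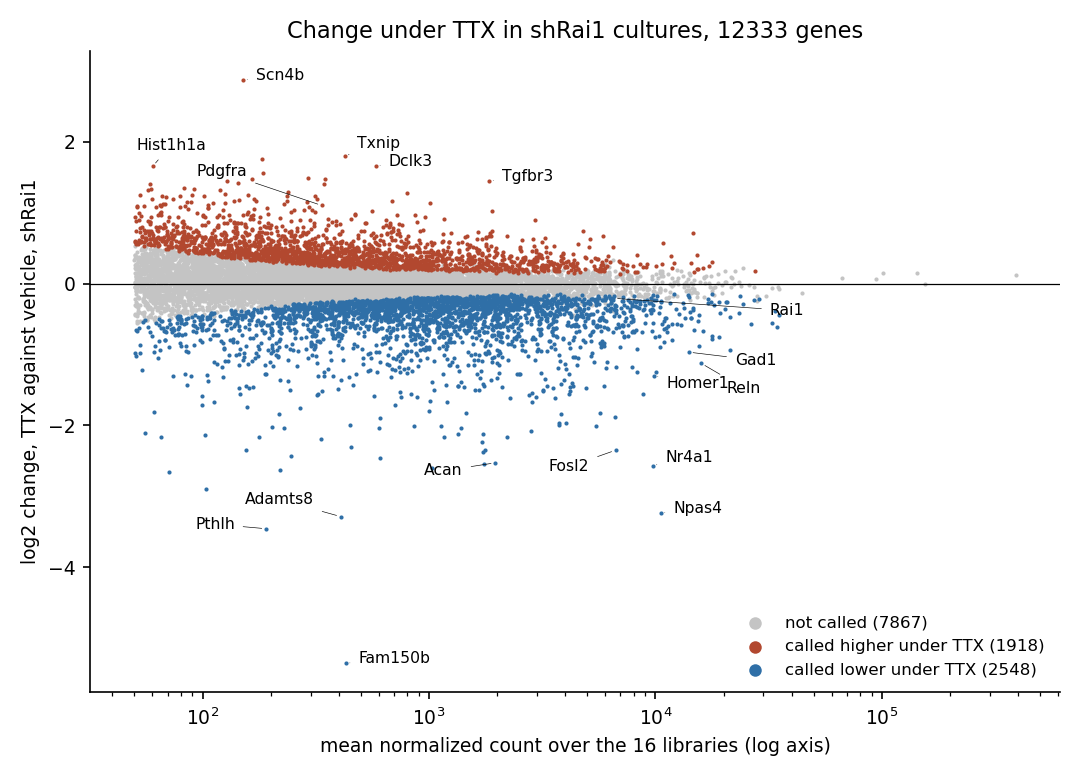
Each point is 1 of the 12333 genes, with its mean normalized count over the 16 libraries on a log axis and its deposited log2 change under TTX against vehicle in shRai1 cultures on the vertical axis. Red points (1918) were called higher, blue points (2548) lower and grey points were not called. Falls reach further than rises, with Fam150b at −5.35 and Scn4b at 2.87.

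The deepest fall belonged to Fam150b, which encodes a secreted ligand of the receptor tyrosine kinase ALK. Its computed level went from 382 to 9.34 in shRai1 and from 404 to 9.7 in shCtrl and was alike in both arms. In the authors' deposited table the change was −5.35 (SE 0.247, adjusted p = 6.64e-101). The interval of Fam150b (chr12:31569189-31596477, mm9) is shared with another listed gene, so the count cannot be assigned to it alone. Alk, the receptor, went from 4503 to 2087 and fell by 1.11 in the authors' deposited table (SE 0.11, adjusted p = 3.69e-22).

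Other deep falls were in secreted and signalling genes. Pthlh, the parathyroid hormone-related peptide, went from 172 to 15.7, a log2 change of −3.46 in the authors' deposited table (SE 0.225, adjusted p = 1.33e-50). Adamts8, a secreted metalloprotease, went from 583 to 59.8 and fell by 3.28 (SE 0.149, adjusted p = 3.02e-104) in the authors' deposited table. Adamts15, a protease of the same family that cleaves proteoglycans, went from 1798 to 297 and fell by 2.60 in the authors' deposited table (SE 0.112, adjusted p = 2.59e-115). Acan, which encodes aggrecan, a core proteoglycan of perineuronal nets and a substrate of such proteases, went from 952 to 165. Its deposited change was −2.53 (SE 0.134, adjusted p = 4.21e-76) in the authors' deposited table. In each of these genes the shCtrl change was called in the same direction.

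Enzymes and receptors were among the 12 largest falls too. Gch1, the first enzyme in the synthesis of the cofactor tetrahydrobiopterin, went from 302 to 48.8, −2.63 in the authors' deposited table (SE 0.165, adjusted p = 1.69e-54). Ptgs2, the inducible cyclooxygenase that starts prostaglandin synthesis, went from 193 to 35.2 with a deposited change of −2.46 (SE 0.181, adjusted p = 9.08e-40) in the authors' deposited table. Atp12a, a proton-potassium pump subunit, went from 86.8 to 11.6, −2.90 in the authors' deposited table (SE 0.266, adjusted p = 1.01e-25). Htr5b, a serotonin receptor, went from 117 to 18.6 and fell by 2.66 (SE 0.243, adjusted p = 6.85e-26) in the authors' deposited table. For Atp12a and Htr5b, the vehicle level was itself low, at 86.8 and 117.

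The immediate-early transcription factors fell as a group. Of 26 listed, 25 reached the mean count limit, 21 of these fell, 1 rose and 3 were not called. The median log2 change was −1.46, against −0.01 over all genes measured. The count of each list stands against 20.7% lower and 15.6% higher over all genes. Their summed computed level went from 59969 to 15126, which took them from 0.376% to 0.101% of the summed level of all 12333 genes. In bulk cultures fewer transcribing cells and less transcription per cell cannot be told apart.

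Npas4, a neuronal factor induced by calcium entry (chr19:4984355-4989971, mm9), went from 8679 to 920.0, a log2 change of −3.24 in the authors' deposited table (SE 0.215, adjusted p = 6.00e-49). Nr4a1, an orphan nuclear receptor, went from 11479 to 1935, −2.57 in the authors' deposited table (SE 0.228, adjusted p = 1.57e-27). Fosl2, a FOS family member, had the smallest adjusted p of the list: it went from 6774 to 1328 and fell by 2.35 in the authors' deposited table (SE 0.0873, adjusted p = 1.51e-155). The changes of these factors lay between −3.24 and −2.35.

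Fos itself went from 3078 to 858, −1.84 in the authors' deposited table (SE 0.214, adjusted p = 2.89e-16). Egr1, a zinc finger factor, went from 8043 to 2269.7 and fell by 1.83 (SE 0.117, adjusted p = 2.39e-52) in the authors' deposited table. Nr4a3, the third NR4A receptor, went from 4219 to 1083 with −1.96 in the authors' deposited table (SE 0.0848, adjusted p = 5.84e-115). The fall did not extend to every member. Jun was at −0.26 (SE 0.186, adjusted p = 0.321) and Jund at −0.23 (SE 0.124, adjusted p = 0.148) in the authors' deposited table, neither of them called. Klf10, a Krüppel-like repressor, rose by 0.36 (SE 0.127, adjusted p = 0.0187) in the authors' deposited table, from 274 to 351 on the computed scale.

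The products of the second wave moved the same way. Of 25 activity-regulated effectors 23 were measured, 21 of them fell, 1 rose and the median was −1.33. Homer1, a postsynaptic scaffold with an activity-induced short form, went from 10038 to 4085, −1.30 in the authors' deposited table (SE 0.063, adjusted p = 2.79e-91). Rgs2, which shortens G-protein signals, went from 1718 to 330.0 and fell by 2.38 in the authors' deposited table (SE 0.0952, adjusted p = 4.21e-134). Bdnf, the neurotrophin that binds TrkB, went from 1529 to 498, and the authors' deposited table gives −1.62 (SE 0.123, adjusted p = 3.89e-37). Arc, a cytoskeletal protein that moves AMPA receptors, went from 2957 to 739, −2.0 in the authors' deposited table (SE 0.209, adjusted p = 5.55e-20).

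Nptx2, a secreted pentraxin that clusters AMPA receptors, went from 1268 to 270.3 and fell by 2.23 in the authors' deposited table (SE 0.115, adjusted p = 4.84e-81). Its relative Nptx1 did not share the fall: it went from 814 to 941, 0.21 in the authors' deposited table (SE 0.089, adjusted p = 0.0604), and centring gave an adjusted p of 0.0487. Stc1, a secreted glycoprotein, rose by 0.39 (SE 0.147, adjusted p = 0.0313) in the authors' deposited table and was the only member called higher. Inhba, an activin subunit, was a shallow member, at −0.56 (SE 0.215, adjusted p = 0.0346) in the authors' deposited table.

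Negative regulators of MAP kinase signalling formed the third group with a median beyond −1. Of 16 measured, 14 fell, none rose and the median was −1.31. Dusp4, a nuclear phosphatase of ERK, went from 1599 to 274, −2.54 in the authors' deposited table (SE 0.116, adjusted p = 2.70e-103). Dusp10, which acts on p38 and JNK, went from 1992 to 459 and fell by 2.12 (SE 0.0918, adjusted p = 2.79e-114) in the authors' deposited table. Spred2, a membrane inhibitor of the RAS to ERK step, went from 8358 to 3507, −1.25 in the authors' deposited table (SE 0.0591, adjusted p = 1.15e-96). Spred1, its close relative, went from 3824 to 1491 with −1.36 (SE 0.0892, adjusted p = 5.62e-50) in the authors' deposited table. Dusp8 and Dusp16 were the members not called, with −0.14 (SE 0.109, adjusted p = 0.379) and −0.04 (SE 0.112, adjusted p = 0.841) in the authors' deposited table.

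Among regulators of G-protein signalling, 10 of 14 fell and 1 rose, with a median of −0.49. Rgs16 went from 237 to 58.4, −2.02 in the authors' deposited table (SE 0.171, adjusted p = 2.95e-30). Rgs8 went from 2420.0 to 892 and fell by 1.44 in the authors' deposited table (SE 0.0865, adjusted p = 1.23e-59). Rgs4 went from 1261 to 567 with −1.15 (SE 0.108, adjusted p = 1.14e-24) in the authors' deposited table. Rgs9, known from striatal neurons, was the member that rose, by 0.26 (SE 0.0883, adjusted p = 0.0131) in the authors' deposited table.

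The machinery that carries the calcium signal to the nucleus changed less evenly. In the list of CREB pathway genes and calcium-calmodulin kinases 9 of 20 fell and 2 rose, with a median of −0.16. Creb1 itself was at 0.11 (SE 0.0745, adjusted p = 0.257) and the coactivator gene Crebbp at 0.09 (SE 0.0562, adjusted p = 0.211) in the authors' deposited table, neither called. Camk1g, a calmodulin kinase, went from 927 to 389.8, −1.25 in the authors' deposited table (SE 0.0991, adjusted p = 2.97e-34). Camkk2, a kinase that activates such kinases, went from 1497 to 861 and fell by 0.80 (SE 0.0867, adjusted p = 1.86e-18) in the authors' deposited table. The salt-inducible kinases, which restrain CREB coactivators, fell: Sik3 went from 13573 to 7896, −0.78 in the authors' deposited table (SE 0.0648, adjusted p = 2.22e-31). Sik2, whose interval is shared with another listed gene, went from 3649 to 1599 and fell by 1.19 (SE 0.0993, adjusted p = 5.37e-31) in the authors' deposited table.

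**Figure D2:**
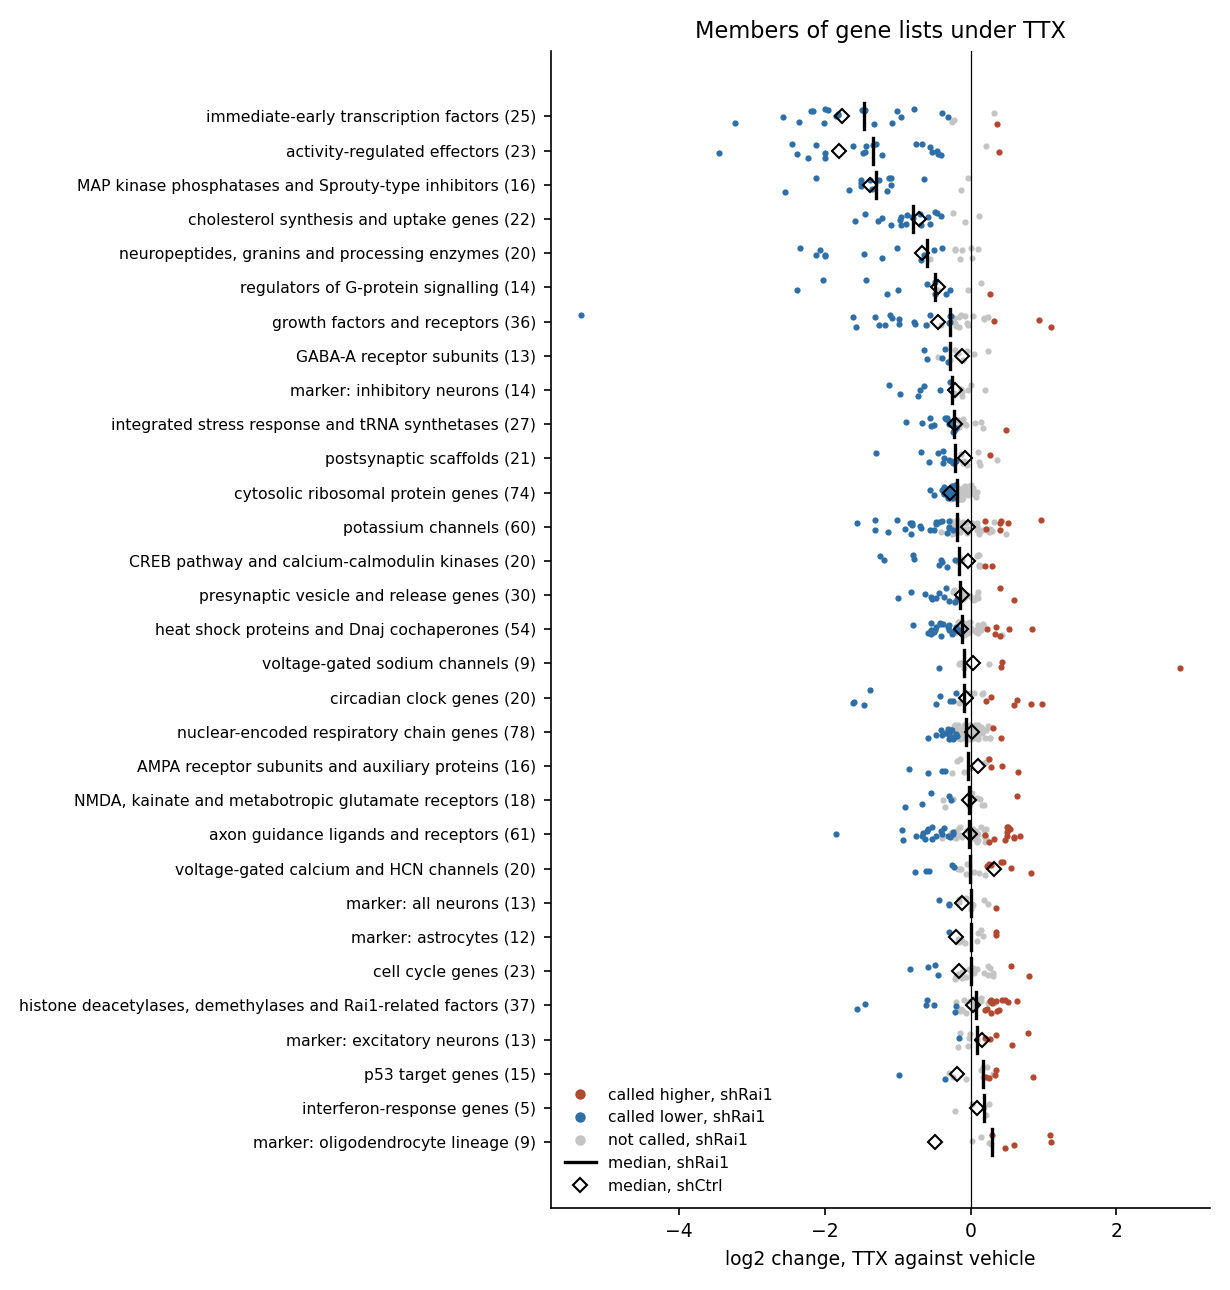
Each row is a gene list with its number of measured members in parentheses, and each point is a member's deposited log2 change under TTX in shRai1 (red called higher, blue called lower, grey not called). Black bars mark the median in shRai1 and open diamonds the median in shCtrl. The first 3 rows have shRai1 medians of −1.46, −1.33 and −1.31, and the oligodendrocyte-lineage row is the one with the medians farthest apart on opposite sides of 0, at 0.29 and −0.50.

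RefSeq promoters (GRCm38.p6, 250 bases before to 50 bases after the start) were available for 2047 of the 2548 genes that fell, or 80.3%. The palindromic CREB site TGACGTCA stood in 4.93% of their 2719 promoters and in 1.79% of all 32851 promoters given. Its core TGACG, on either strand and with the full palindrome included, stood in 39.9% against 20.8%. The AP-1 site TGANTCA, which reads the same class of bases on both strands, stood in 5.0% against 7.81%. The promoters of the genes that fell had a median GC content of 63.0%, against 61.3% for all genes measured. Over all promoters it was 52.7%, and many of these belong to genes not measured here. The part of base content in these shares was not tested. For the genes that rose, those not called and all 12333 together, under 80% could be matched, and no share is given. The shares above therefore set the genes that fell against all promoters, not against the other genes measured.

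Promoters are shown for Maff, Pcsk1 and Epha2 because they are the genes with the deepest falls among those matched whose promoter holds the full palindrome, and for Scn4b because it is the largest rise. Capitals mark TGACGTCA, which the last sequence lacks. Maff is at chr15:79347270-79347569 on the plus strand with the first base of the site at −29 from the start, Pcsk1 at chr13:75089607-75089906 on the plus strand with the site at −78, Epha2 at chr4:141300971-141301270 on the plus strand with the site at −33, and Scn4b at chr9:45138374-45138673 on the plus strand, all in GRCm38.p6.
Maff: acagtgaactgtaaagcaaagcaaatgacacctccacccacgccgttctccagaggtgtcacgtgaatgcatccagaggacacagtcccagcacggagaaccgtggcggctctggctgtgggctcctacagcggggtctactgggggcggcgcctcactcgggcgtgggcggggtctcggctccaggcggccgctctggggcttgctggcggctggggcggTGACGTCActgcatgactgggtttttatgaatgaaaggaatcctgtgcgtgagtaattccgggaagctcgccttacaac
Pcsk1: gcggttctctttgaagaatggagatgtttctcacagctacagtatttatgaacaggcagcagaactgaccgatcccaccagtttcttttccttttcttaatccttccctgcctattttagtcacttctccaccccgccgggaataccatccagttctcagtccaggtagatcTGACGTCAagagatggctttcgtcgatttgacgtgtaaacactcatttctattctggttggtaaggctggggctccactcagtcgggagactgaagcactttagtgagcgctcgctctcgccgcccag
Epha2: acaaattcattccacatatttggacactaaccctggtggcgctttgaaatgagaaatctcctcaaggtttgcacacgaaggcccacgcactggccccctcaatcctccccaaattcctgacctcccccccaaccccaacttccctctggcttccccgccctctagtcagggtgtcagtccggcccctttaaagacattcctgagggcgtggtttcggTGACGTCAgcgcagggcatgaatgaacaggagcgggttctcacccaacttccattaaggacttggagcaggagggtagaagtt
Scn4b: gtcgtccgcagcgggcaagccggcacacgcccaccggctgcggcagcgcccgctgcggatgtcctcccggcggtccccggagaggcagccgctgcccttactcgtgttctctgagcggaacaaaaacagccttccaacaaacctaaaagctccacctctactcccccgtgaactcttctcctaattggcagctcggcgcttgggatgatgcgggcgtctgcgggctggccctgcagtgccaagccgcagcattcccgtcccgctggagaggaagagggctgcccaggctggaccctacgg

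Maff, a small MAF transcription factor, went from 311 to 68.2, −2.19 in the authors' deposited table (SE 0.176, adjusted p = 1.90e-33). Pcsk1, the convertase that cleaves neuropeptide precursors, went from 591 to 147, −2.0 in the authors' deposited table (SE 0.125, adjusted p = 2.01e-55). Epha2, an ephrin receptor, went from 125 to 34.8 and fell by 1.85 (SE 0.194, adjusted p = 1.00e-19) in the authors' deposited table. A match of letters in these windows does not show binding, and the absence of one in Scn4b holds for this window only.

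Peptide transmitters and the enzymes that mature them fell in many cases: 12 of 20 measured members fell, none rose, and the median was −0.60. Pnoc, the precursor of nociceptin, went from 1538 to 365, −2.07 in the authors' deposited table (SE 0.092, adjusted p = 4.95e-109). Vgf, a granin-like precursor, went from 1323 to 303 and fell by 2.13 in the authors' deposited table (SE 0.0958, adjusted p = 8.16e-106). Penk, the enkephalin precursor, went from 755 to 189, −2.0 in the authors' deposited table (SE 0.124, adjusted p = 8.91e-56). Nts, the neurotensin precursor, was low at the start, from 93.2 to 18.4, with −2.34 (SE 0.361, adjusted p = 1.64e-09) in the authors' deposited table.

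Other peptide precursors were not called. Sst was at 0.01 (SE 0.163, adjusted p = 0.973), Cck at −0.21 (SE 0.0998, adjusted p = 0.0906) and Vip at −0.11 (SE 0.249, adjusted p = 0.793) in the authors' deposited table. Oprl1, the receptor of nociceptin, was among the 12 largest rises, opposite in direction to its ligand's precursor. It went from 92.2 to 250.01, 1.44 in the authors' deposited table (SE 0.161, adjusted p = 1.69e-17).

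Growth factors and their receptors fell in 18 of 36 measured cases and rose in 3, with a median of −0.28. Igf1, insulin-like growth factor 1, went from 2372 to 797, −1.57 in the authors' deposited table (SE 0.0996, adjusted p = 1.04e-53). Ntrk2, the BDNF receptor TrkB, went from 32130.1 to 20914, a smaller change of −0.62 in the authors' deposited table (SE 0.0575, adjusted p = 3.90e-25). A ligand and a pair of receptors went up. Ntf3, neurotrophin 3, went from 56.4 to 108, 0.94 in the authors' deposited table (SE 0.206, adjusted p = 4.53e-05). Igf1r, the receptor of IGF1, rose by 0.32 (SE 0.0688, adjusted p = 3.03e-05) in the authors' deposited table. Pdgfra, the other gene called higher, is described with the oligodendrocyte lineage.

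Voltage-gated sodium channels, the target of TTX, gave the largest called rise among the genes measured. Scn4b, the beta-4 auxiliary subunit (chr9:44947125-44962144, mm9), went from 45.1 to 329.9 in shRai1 and from 61.8 to 369 in shCtrl, 2.87 in the authors' deposited table for shRai1 (SE 0.183, adjusted p = 4.56e-53). Scn2b, the beta-2 subunit with an interval shared with another listed gene, rose by 0.43 (SE 0.0948, adjusted p = 6.06e-05) in the authors' deposited table. Scn1a, a pore-forming subunit prominent in fast-spiking interneurons, fell by 0.44 (SE 0.115, adjusted p = 8.99e-04) in the authors' deposited table. The pore-forming subunits Scn2a1, Scn3a and Scn8a were not called, at −0.09, 0.25 and −0.14 in the authors' deposited table. Over the 9 measured subunits the median was −0.09.

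Potassium channels fell in 23 of 60 measured cases and rose in 7, with a median of −0.19. Kcnj2, an inward rectifier that steadies the resting potential, went from 391 to 133, −1.56 in the authors' deposited table (SE 0.139, adjusted p = 4.81e-27). Kcnf1, a modifier subunit, went from 415 to 167 and fell by 1.31 in the authors' deposited table (SE 0.123, adjusted p = 1.81e-24). Kcnn2, a calcium-activated SK channel with an interval shared with another listed gene, went from 6935 to 3721, −0.90 in the authors' deposited table (SE 0.1, adjusted p = 1.71e-17). Kcnk10, a leak channel, went from 1536 to 953 and fell by 0.69 (SE 0.0813, adjusted p = 9.51e-16) in the authors' deposited table. Among the rises were Kcnh6 at 0.97 (SE 0.174, adjusted p = 3.50e-07) and Kcnj12 at 0.52 (SE 0.0897, adjusted p = 1.17e-07) in the authors' deposited table.

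Calcium and HCN channels split in both directions, 7 higher and 5 lower of 20, with a median close to 0. Of the low-voltage-activated T-type genes, Cacna1g and Cacna1h were on the high side. Cacna1h, whose interval is shared with another listed gene, went from 557 to 989, 0.83 in the authors' deposited table (SE 0.0857, adjusted p = 2.67e-20). Cacna1g went from 757 to 1108 and rose by 0.55 (SE 0.113, adjusted p = 1.27e-05) in the authors' deposited table. Cacna2d1, an auxiliary subunit, fell by 0.57 (SE 0.0944, adjusted p = 2.00e-08) in the authors' deposited table. Hcn4, a pacemaker channel, went from 471 to 309 and fell by 0.61 (SE 0.112, adjusted p = 6.47e-07) in the authors' deposited table.

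AMPA receptor genes changed in their auxiliary proteins, while no pore subunit was called. Gria1 was at 0.22 (SE 0.0906, adjusted p = 0.0553), Gria2 at −0.14 (SE 0.102, adjusted p = 0.324), Gria3 at −0.26 (SE 0.201, adjusted p = 0.364) and Gria4 at −0.19 (SE 0.0947, adjusted p = 0.124) in the authors' deposited table. Centring the changes on their median brought Gria1 past the threshold, at an adjusted p of 0.0448 in the same Wald test. Gsg1l, an auxiliary protein that slows recovery from desensitization, went from 3136 to 4908 and rose by 0.65 in the authors' deposited table (SE 0.0765, adjusted p = 1.33e-15). Cacng5, a type of TARP, went from 1078 to 599.6 and fell by 0.85 (SE 0.0998, adjusted p = 9.26e-16) in the authors' deposited table. Cnih3, a cornichon, went from 1351 to 904, −0.58 in the authors' deposited table (SE 0.0718, adjusted p = 2.69e-14). Cacng7 fell by 0.39 (SE 0.0841, adjusted p = 3.44e-05) in the authors' deposited table. In all, 4 of 16 rose and 4 fell, with a median of −0.04.

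Among the other glutamate receptors 5 of 18 fell and 1 rose, against 20.7% and 15.6% of all genes, and the median was −0.02. Grm7, a presynaptic metabotropic receptor, went from 12207 to 7716, −0.66 in the authors' deposited table (SE 0.115, adjusted p = 1.27e-07). Grik1, a kainate receptor subunit, went from 4105 to 2208 and fell by 0.90 (SE 0.181, adjusted p = 8.87e-06) in the authors' deposited table. Grik4, another kainate subunit, was the member that rose: it went from 4722 to 7315, 0.63 in the authors' deposited table (SE 0.0792, adjusted p = 5.72e-14). Grin3a, an NMDA receptor subunit that lowers calcium entry, went from 415 to 283 and fell by 0.55 from a shared interval in the authors' deposited table (SE 0.128, adjusted p = 1.52e-04). Grin1, the obligatory NMDA receptor subunit, which has a shared interval, fell by 0.27 (SE 0.0679, adjusted p = 5.26e-04), while Grin2b was at 0.02 (SE 0.0926, adjusted p = 0.89) in the authors' deposited table. Of the GABA-A receptor subunits 5 of 13 fell and none rose, with a median of −0.28. Gabrg3 fell by 0.35 in the authors' deposited table (SE 0.0756, adjusted p = 2.76e-05). Gabra5, an extrasynaptic subunit, fell by 0.64 from a shared interval (SE 0.111, adjusted p = 1.39e-07) and Gabra4 fell by 0.39 (SE 0.118, adjusted p = 0.00449) in the authors' deposited table.

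Postsynaptic scaffolds fell in 11 of 21 cases and rose in 1. Besides Homer1, Homer2 went from 4099 to 2564, −0.68 in the authors' deposited table (SE 0.0654, adjusted p = 3.05e-23). Dlgap1, which links PSD-95 to SHANK proteins, went from 29205 to 19603 and fell by 0.58 (SE 0.0846, adjusted p = 2.48e-10) in the authors' deposited table. Dlgap2, of the same family, went from 32099 to 24559.5, −0.39 in the authors' deposited table (SE 0.0709, adjusted p = 7.04e-07). Dlg4, which encodes PSD-95, fell by 0.20 in the authors' deposited table (SE 0.0752, adjusted p = 0.0258). Nlgn3, a neuroligin, was the member that rose, by 0.27 (SE 0.0813, adjusted p = 0.00472) in the authors' deposited table.

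On the presynaptic side 12 of 30 genes fell and 2 rose, with a median of −0.15. Unc13a, which primes synaptic vesicles and has a shared interval, went from 2035 to 1019, −1.0 in the authors' deposited table (SE 0.0748, adjusted p = 2.64e-38). Rims1, an active zone scaffold, went from 10860.4 to 6136 and fell by 0.82 (SE 0.101, adjusted p = 9.76e-15) in the authors' deposited table. Unc13b, a relative of Unc13a, fell by 0.54 (SE 0.0799, adjusted p = 4.56e-10) in the authors' deposited table.

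Axon guidance genes had 19 falls and 12 rises among 61, with a median of −0.02. Sema6a, a transmembrane semaphorin, went from 2683 to 1392, −0.95 in the authors' deposited table (SE 0.0755, adjusted p = 5.92e-34). Sema7a, a membrane-anchored semaphorin, fell by 0.92 (SE 0.107, adjusted p = 2.70e-16) and Plxna2, a plexin receptor, fell by 0.53 (SE 0.0757, adjusted p = 5.64e-11) in the authors' deposited table. Unc5a, a netrin receptor with a shared interval, went the other way, from 1105 to 1675, with a rise of 0.60 in the authors' deposited table (SE 0.0908, adjusted p = 8.78e-10).

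Apart from Scn4b the largest rises were moderate. Txnip, a binding partner of thioredoxin that restrains glucose uptake, went from 226 to 783, 1.79 in the authors' deposited table (SE 0.124, adjusted p = 5.98e-45), from an interval shared with another listed gene. Atoh8, a basic helix-loop-helix factor, went from 102 to 341 and rose by 1.75 (SE 0.161, adjusted p = 2.07e-25) in the authors' deposited table. Dclk3, a kinase of the doublecortin-like family, went from 337 to 1063, 1.66 in the authors' deposited table (SE 0.138, adjusted p = 2.32e-31). Tgfbr3, the TGF-beta co-receptor betaglycan, went from 1032 to 2812, and its rise of 1.45 in the authors' deposited table had the smallest error of the 12 largest rises (SE 0.0823, adjusted p = 2.60e-66).

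Tesc, a calcium-binding protein, went from 233 to 648, 1.47 in the authors' deposited table (SE 0.114, adjusted p = 2.92e-36). Ackr3, an atypical receptor that takes up the chemokine CXCL12, went from 109.8 to 305 and rose by 1.47 (SE 0.148, adjusted p = 1.53e-21) in the authors' deposited table. Plxdc1, a transmembrane protein with a plexin-like domain, went from 93.7 to 251, 1.42 in the authors' deposited table (SE 0.156, adjusted p = 4.16e-18).

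Histone genes of the Hist clusters supplied 3 of the 12 largest rises, and this family was taken up after those values were seen. Of 68 listed, 35 reached the mean count limit, of which 33 rose and none fell. The median was 1.07, and the summed computed level of the listed genes went from 3738 to 7779. Hist1h1a, a linker histone, went from 33.1 to 104, 1.65 in the authors' deposited table (SE 0.243, adjusted p = 2.26e-10). Hist1h1d, another linker histone, went from 95.1 to 279, 1.55 in the authors' deposited table (SE 0.162, adjusted p = 3.90e-20). Hist1h4n, an H4 gene, went from 181 to 507, 1.49 in the authors' deposited table (SE 0.128, adjusted p = 2.86e-29). Near-identical copies of these genes share reads, so the values of single members are uncertain, and 6 of the 68 have a listed mean of 0.

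Cholesterol synthesis and uptake genes fell almost throughout. Of 22 measured, 19 fell, none rose and the median was −0.79. Cyp51, a lanosterol demethylase, went from 2913 to 1206 and fell by 1.27 (SE 0.0709, adjusted p = 2.94e-69) in the authors' deposited table. Hsd17b7, a later enzyme of sterol synthesis, went from 763 to 255, −1.58 in the authors' deposited table (SE 0.112, adjusted p = 5.78e-43). Hmgcs1, an early synthase of the pathway, went from 4583 to 2143 with −1.10 (SE 0.0845, adjusted p = 2.84e-36) in the authors' deposited table. Dhcr7, a late enzyme of the pathway, was not called, at −0.08 (SE 0.0789, adjusted p = 0.504) in the authors' deposited table.

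Circadian clock genes changed in both directions. Of 20, 9 fell and 6 rose. The repressors Per1, Per2 and Cry1 were among the falls. Per1 went from 5042 to 1645, −1.62 in the authors' deposited table (SE 0.106, adjusted p = 9.49e-50). Per2 went from 3609 to 1195 and fell by 1.59 in the authors' deposited table (SE 0.0941, adjusted p = 1.08e-61). Cry1 went from 1024 to 393, −1.38 in the authors' deposited table (SE 0.0916, adjusted p = 4.40e-49). Nfil3, a repressor that is also in the list of immediate-early factors, went from 1442 to 524, −1.46 in the authors' deposited table (SE 0.105, adjusted p = 8.42e-42).

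The rises included the PAR bZIP factors Dbp and Tef, the nuclear receptor gene Nr1d1 and the third period gene, Per3. Dbp, with a shared interval, went from 169.6 to 335 and rose by 0.98 in the authors' deposited table (SE 0.142, adjusted p = 9.15e-11). Tef went from 1558 to 2415, 0.63 in the authors' deposited table (SE 0.083, adjusted p = 8.31e-13). Nr1d1, which encodes REV-ERB alpha, rose by 0.83 (SE 0.197, adjusted p = 1.95e-04), and Per3 by 0.60 (SE 0.102, adjusted p = 7.67e-08) in the authors' deposited table. The positive factor Clock was at −0.01 (SE 0.0869, adjusted p = 0.962), and its partner Arntl fell by 0.42 (SE 0.0682, adjusted p = 2.01e-08) in the authors' deposited table.

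Among histone deacetylases, demethylases and factors related to Rai1, 13 of 37 rose and 7 fell. Hdac9, a class II deacetylase, went from 8577 to 2901, −1.56 in the authors' deposited table (SE 0.182, adjusted p = 3.78e-16). Hdac5, of the same class and with a shared interval, went from 5358 to 1952 and fell by 1.46 (SE 0.0903, adjusted p = 6.29e-56) in the authors' deposited table. Hdac4 went from 13257 to 8791, −0.59 in the authors' deposited table (SE 0.0703, adjusted p = 1.42e-15). Hdac3, a class I enzyme, went from 1299.6 to 921 and fell by 0.50 (SE 0.0751, adjusted p = 8.02e-10) in the authors' deposited table. Tcf20, a paralog of Rai1 with a shared interval, rose by 0.29 (SE 0.0648, adjusted p = 5.97e-05) in the authors' deposited table.

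Cytosolic ribosomal protein genes fell in 24 of 74 cases and rose in none, with a median of −0.19. Rpl22l1, a paralog of Rpl22, fell by 0.56 (SE 0.129, adjusted p = 1.07e-04) and Rpl3 fell by 0.29 from a shared interval (SE 0.0745, adjusted p = 8.48e-04) in the authors' deposited table, while Rpl21 fell by 0.50 (SE 0.0859, adjusted p = 9.55e-08) and Rplp2 fell by 0.37 from a shared interval (SE 0.0968, adjusted p = 0.00102). Many pseudogene copies of such genes exist, so these single values are uncertain. Respiratory chain genes fell in 16 of 78, a share near the 20.7% of all genes, and rose in 2, with a median of −0.07. Cycs, which encodes cytochrome c, fell by 0.59 (SE 0.0999, adjusted p = 6.19e-08) and Sdhb, a subunit of complex II, fell by 0.40 (SE 0.0824, adjusted p = 9.67e-06) in the authors' deposited table. Of the ATP synthase subunits, Atp5g1 fell by 0.40 (SE 0.0846, adjusted p = 2.71e-05) and Atp5d fell by 0.48 (SE 0.102, adjusted p = 2.78e-05) in the authors' deposited table.

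Heat shock proteins and DnaJ cochaperones fell in 21 of 54 and rose in 6, with a median of −0.12. Hspa4, an HSP110 chaperone, went from 4426 to 2568, −0.79 in the authors' deposited table (SE 0.0714, adjusted p = 3.26e-26). Hsph1, of the same family, fell by 0.58 (SE 0.0778, adjusted p = 2.70e-12), Hspa9, a mitochondrial chaperone, fell by 0.42 (SE 0.0625, adjusted p = 3.13e-10) and Hspb11, also an intraflagellar transport protein, rose by 0.84 (SE 0.137, adjusted p = 1.56e-08) in the authors' deposited table. In the integrated stress response and tRNA synthetase list 15 of 27 fell and 1 rose. Slc7a5, an amino acid transporter, went from 3386 to 1827, −0.89 in the authors' deposited table (SE 0.0898, adjusted p = 2.50e-21). Atf4, the factor that leads this response, fell by 0.67 (SE 0.0954, adjusted p = 4.87e-11), Mthfd2, a mitochondrial folate enzyme, fell by 0.55 (SE 0.109, adjusted p = 4.14e-06) and Eprs, a tRNA synthetase, fell by 0.54 (SE 0.0588, adjusted p = 2.12e-18) in the authors' deposited table. Of the p53 targets 5 of 15 rose and 2 fell. Of the cell cycle genes 2 of 23 rose and 4 fell, shares under the 15.6% and 20.7% of all genes, and none of the 5 measured interferon-response genes was called.

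Trp53inp1, a p53 target, had the largest rise of that list: it went from 553 to 997, 0.85 in the authors' deposited table (SE 0.0897, adjusted p = 1.70e-19). Btg2, a p53 target that is also induced by activity, went from 1829 to 921 and fell by 0.99 (SE 0.184, adjusted p = 9.75e-07) in the authors' deposited table. Zmat3, which encodes an RNA-binding protein, fell by 0.35 from a shared interval (SE 0.0676, adjusted p = 2.07e-06) and Ei24 rose by 0.33 (SE 0.0914, adjusted p = 0.00202) in the authors' deposited table. In the cell cycle list Mki67, the proliferation marker Ki-67, went from 46 to 80.4, 0.80 in the authors' deposited table (SE 0.219, adjusted p = 0.00148). Pcna, the sliding clamp of DNA replication, went from 139 to 77.9 and fell by 0.84 in the authors' deposited table (SE 0.166, adjusted p = 5.79e-06). The D-type cyclin genes Ccnd1 fell by 0.44 (SE 0.1, adjusted p = 8.68e-05) and Ccnd2 fell by 0.49 from a shared interval (SE 0.0687, adjusted p = 3.13e-11), and cyclin E1, Ccne1, fell by 0.58 (SE 0.156, adjusted p = 0.00126) in the authors' deposited table.

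**Figure D3:**
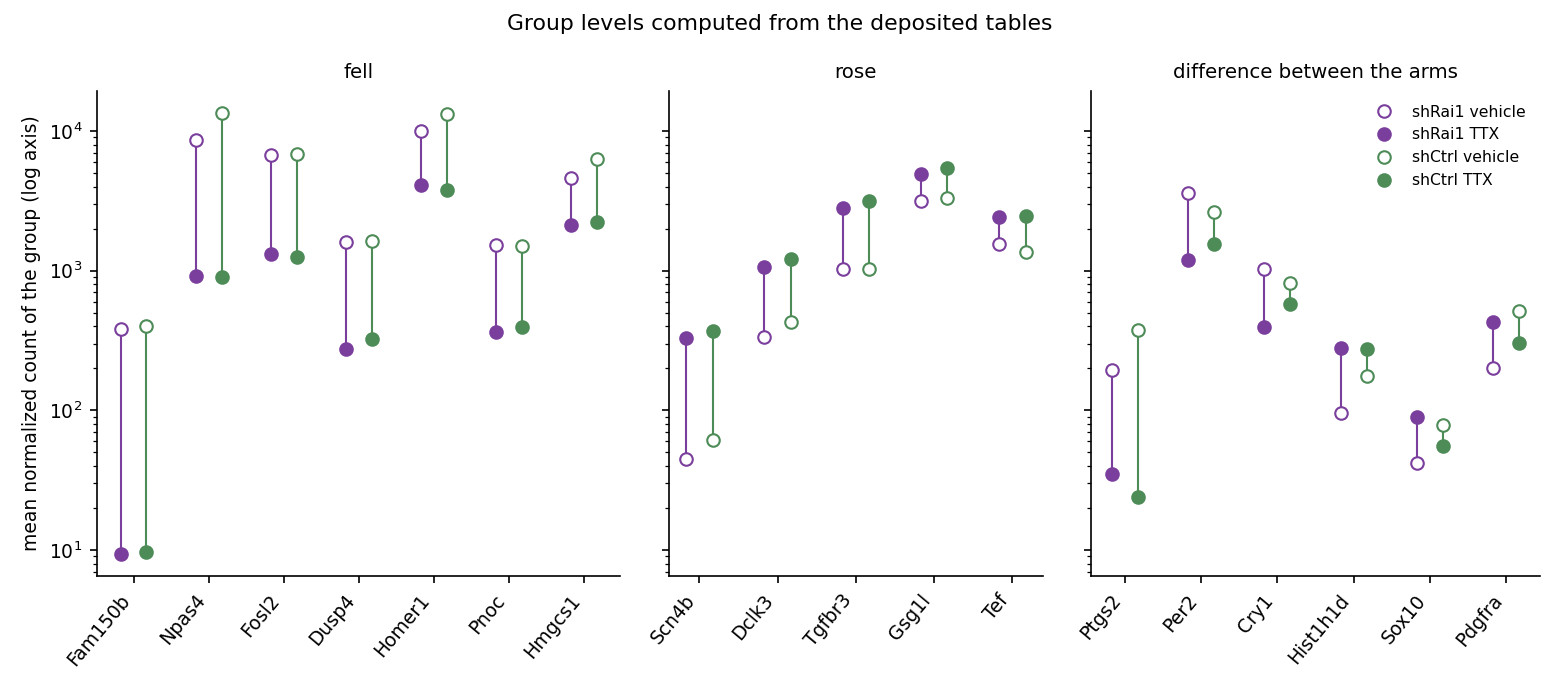
Vertical lines join the computed mean normalized count of the vehicle group (open circles) and the TTX group (filled circles) on a log axis, for shRai1 (purple) and shCtrl (green). No error bars are drawn because the tables give no value per library. Npas4 goes from 8679 to 920 in shRai1 and Scn4b from 45.1 to 330, while Pdgfra and Sox10 go up in shRai1 and down in shCtrl.

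Markers fit the cell types on the labels. All 13 excitatory neuron markers, 14 of 15 inhibitory, all 13 general neuron and 12 of 15 astrocyte markers reached the mean count limit. For the oligodendrocyte lineage the number was 9 of 20, for microglia 2 of 13 and for endothelial cells, pericytes and fibroblasts 1 of 14. Cldn5, of the last list, has a listed mean of 0. The ribosomal protein genes Rpl26 and Rps27 have one too, so that a listed 0 does not show low expression. The summed computed level of the microglial markers was 259 in vehicle and 206 under TTX in shRai1, and that of the general neuron markers was 59041 and 58357; such sums compare groups and not lists. The part of other cell types in the changes was not tested.

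Of the 14 measured markers of inhibitory neurons 7 fell under TTX and none rose, with a median of −0.25, and their summed level went from 43728 to 25123. Gad1, which makes GABA and has a shared interval, went from 13208 to 6754, −0.97 in the authors' deposited table (SE 0.0788, adjusted p = 1.44e-32). Gad2, the second GABA-synthesizing enzyme, also with a shared interval, went from 4762 to 2952 and fell by 0.69 (SE 0.0836, adjusted p = 6.41e-15) in the authors' deposited table. Reln, a secreted protein of interneurons, went from 17568 to 8050.2, −1.13 in the authors' deposited table (SE 0.0875, adjusted p = 1.06e-35). Dlx6, a lineage factor, fell by 0.73 from a shared interval (SE 0.143, adjusted p = 4.12e-06) in the authors' deposited table. Others of the list had smaller values, with Lhx6 at −0.04 (SE 0.0974, adjusted p = 0.826) and Slc32a1 at −0.28 (SE 0.105, adjusted p = 0.0261) in the authors' deposited table.

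Of the 13 excitatory markers 5 rose and 1 fell, and the summed level was 38269 in vehicle and 38414 under TTX. Neurod2, a neuronal differentiation factor, went from 231 to 399, 0.79 in the authors' deposited table (SE 0.115, adjusted p = 1.43e-10). Neurod1, of the same family, rose by 0.57 (SE 0.151, adjusted p = 9.90e-04) and Cux2, an upper-layer factor, rose by 0.27 (SE 0.067, adjusted p = 4.35e-04), while Cux1 fell by 0.16 from a shared interval (SE 0.0573, adjusted p = 0.0216) in the authors' deposited table. Slc17a7, the vesicular glutamate transporter, with a shared interval, was at 0.09 (SE 0.107, adjusted p = 0.609) in the authors' deposited table. Astrocyte markers rose in 2 and fell in 1 of 12 cases. Gfap, the intermediate filament, fell by 0.29 (SE 0.0981, adjusted p = 0.0123), while Aqp4 rose by 0.34 (SE 0.138, adjusted p = 0.0434) and Aldoc by 0.34 (SE 0.137, adjusted p = 0.0408) in the authors' deposited table. With adjustment over all genes these rises had adjusted p of 0.0591 and 0.0556 in the same Wald tests. No direction is common to the astrocyte list, whose summed level went from 24865 to 23266. Microglial Cd68 was the only one of its list called, at −0.63 (SE 0.167, adjusted p = 9.58e-04) in the authors' deposited table.

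Of the 13 general neuron markers 1 rose and 3 fell, near the 20.7% lower of all genes, with a median close to 0. Snap25, a protein of the vesicle fusion machinery, fell by 0.44 (SE 0.11, adjusted p = 5.09e-04) and Nefl, a neurofilament, fell by 0.29 (SE 0.101, adjusted p = 0.0176) in the authors' deposited table. Dcx, which binds microtubules in young neurons, rose by 0.35 (SE 0.0999, adjusted p = 0.00262) and Gap43, a growth cone protein, fell by 0.30 from a shared interval (SE 0.0869, adjusted p = 0.00266) in the authors' deposited table.

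The oligodendrocyte lineage had the highest median of the 7 marker lists: 5 of 9 rose, none fell and the median was 0.29. Pdgfra, the PDGF receptor that defines oligodendrocyte precursors (chr5:75548316-75594229, mm9, shared with another listed gene), went from 199.99 to 429, 1.10 in the authors' deposited table (SE 0.118, adjusted p = 8.24e-19). Sox10, the lineage's defining transcription factor, went from 42.2 to 89.9, 1.09 in the authors' deposited table (SE 0.239, adjusted p = 4.49e-05). Cspg4, which encodes NG2, went from 153 to 211 and rose by 0.47 (SE 0.139, adjusted p = 0.0043) in the authors' deposited table. Olig1 went from 289 to 354, 0.29 in the authors' deposited table (SE 0.117, adjusted p = 0.0422), a rise whose adjusted p was 0.0575 with adjustment over all genes. Mbp, a myelin protein, was at 0.14 (SE 0.0823, adjusted p = 0.194) in the authors' deposited table. The summed level over the whole list, 13482 in vehicle and 15462 under TTX, is carried by other listed genes such as Tnr, at 6199 and 7492.

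The same silencing in shCtrl cultures addresses whether the response depends on the Rai1 shRNA. The pair of comparisons shares no library, but the estimate of the spread is common to all 6 Bru-seq groups. In shCtrl 3953 of the 12333 genes were called, 32.1%, with 2247 lower (18.2%) and 1706 higher (13.8%). A total of 2730 genes was called in the same direction in both arms, which is 61.1% of the shRai1 calls and 69.1% of the shCtrl calls. Only 27 genes were called in opposite directions. Because shCtrl_Veh had 2 libraries, the median SE was larger there, at 0.121 against 0.106, and a gene called in 1 arm alone is not thereby shown to differ.

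The difference itself, the log2 change in shRai1 minus that in shCtrl, was tested with a two-sided Wald test and Benjamini-Hochberg adjustment over 21192 genes. It was called for 153 of the 12333, or 1.24%, of which 93 (0.754%) were above 0 and 60 (0.486%) below. At an unadjusted p under 0.05 there were 1506. All 27 genes called in opposite directions were among the 153, 20 of them higher in shRai1 and lower in shCtrl. The median SE of the difference was 0.161, and a test on simulated data recovered 36% of differences of 0.5, so that many small differences can be missed. The shCtrl_Veh group of 2 libraries enters every such difference, and its libraries could not be looked at singly. It lacks a replicate number that the other groups of the difference have. The part of this in the differences was not tested.

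**Figure D4:**
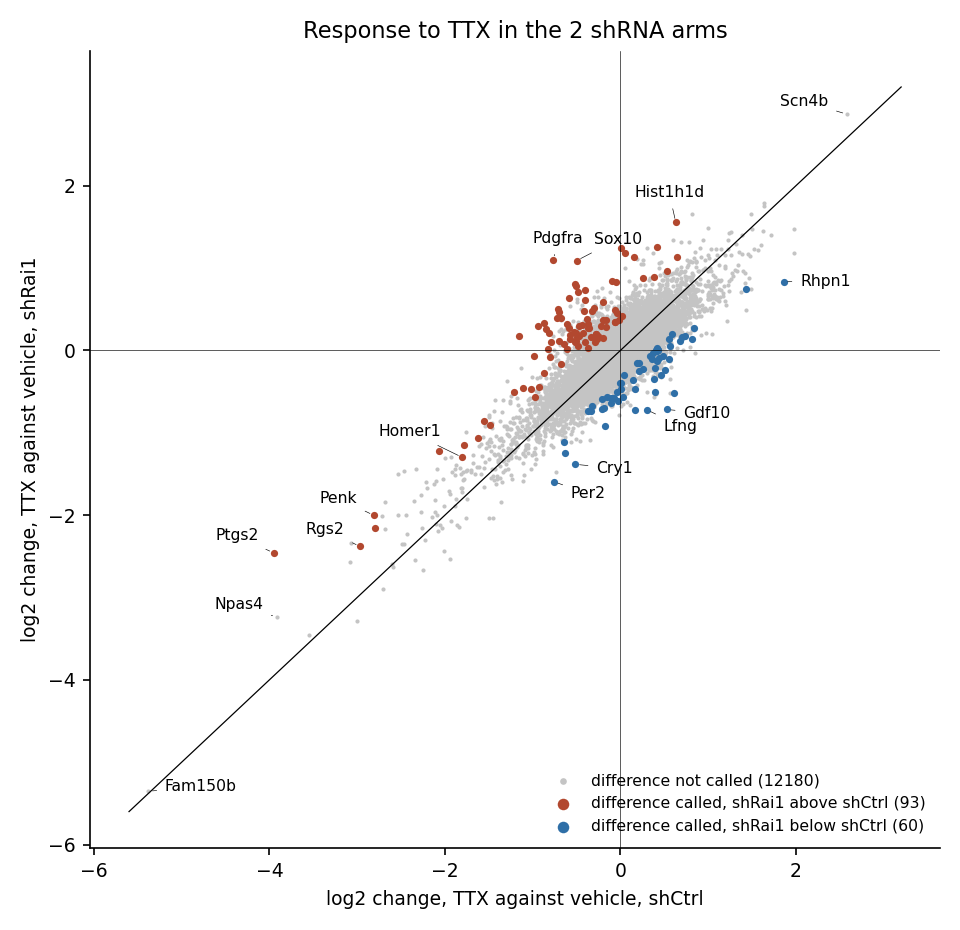
Each point is 1 of the 12333 genes, with its deposited log2 change under TTX in shCtrl on the horizontal axis and in shRai1 on the vertical axis, and the diagonal marks equal responses. Red points (93) had a called difference above 0 and blue points (60) one below 0. Fam150b and Scn4b lie near the diagonal, and Pdgfra and Sox10 lie above it at negative shCtrl values.

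Activity-regulated genes fell in both arms, and several effectors fell less in shRai1. The median of the effector list was −1.33 in shRai1 and −1.80 in shCtrl, and 6 of its 23 members had a called difference, all above 0. Ptgs2 went from 193 to 35.2 in shRai1 and from 374 to 24.1 in shCtrl, a difference of 1.5 (SE 0.278, adjusted p = 1.12e-04). Homer1 went from 10038 to 4085 and from 13259 to 3797, a difference of 0.51 (SE 0.0953, adjusted p = 1.37e-04). Rgs2 went from 1718 to 330.0 and from 2368 to 303, a difference of 0.59 (SE 0.143, adjusted p = 0.0127). In these genes the vehicle level was lower in shRai1 and the TTX level was not.

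Scg2, a granin, differed by 0.85 (SE 0.203, adjusted p = 0.0107), Plk2, a kinase that weakens synapses, by 0.55 (SE 0.126, adjusted p = 0.00571) and Syt4, a synaptotagmin, by 0.66 (SE 0.14, adjusted p = 0.00202). Penk, of the peptide list, went from 755 to 189 in shRai1 and from 1298 to 185 in shCtrl, a difference of 0.81 (SE 0.185, adjusted p = 0.00566). Rgs4 differed by 0.64 (SE 0.163, adjusted p = 0.0216). Called or not, the difference was above 0 for 18 of the 23 effectors, with a median of 0.21. It was above 0 for 21 of the 25 immediate-early factors, with a median of 0.33. These factors had medians of −1.46 in shRai1 and −1.76 in shCtrl, and none of the 25 had a called difference. Egr1 had the smallest adjusted p among them, from 8043 to 2269.7 and from 11724 to 2302, with a difference of 0.52 (SE 0.176, adjusted p = 0.177). Fos, from 3078 to 858 and from 5072 to 793, was at 0.84 (SE 0.318, adjusted p = 0.293).

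The deposited comparison of shRai1 with shCtrl within each treatment places these differences. It shares its libraries with both responses and is no separate evidence. In vehicle 119 of 12333 genes were called (0.965%) and under TTX 6 (0.0486%). Of the 93 genes with a difference above 0, 55 were called lower in shRai1 than in shCtrl in vehicle, and 3 were called higher under TTX. Of the 60 below 0, 11 were called higher in vehicle and 3 lower under TTX. For Ptgs2 the vehicle contrast was −0.95 (SE 0.151, adjusted p = 1.29e-06) and the TTX contrast 0.54 (SE 0.232, adjusted p = 1) in the authors' deposited table.

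The largest differences above 0 were those of Pdgfra and Sox10, of the oligodendrocyte lineage. The list had a median of 0.29 in shRai1 and −0.50 in shCtrl, and 6 of its 9 measured members had a difference above 0, of which 5 were called. Mbp, Tnr and Lhfpl3 had differences of −0.35 (SE 0.125, adjusted p = 0.231), −0.22 (SE 0.247, adjusted p = 1) and −0.19 (SE 0.239, adjusted p = 1), and 2 members were called higher in shCtrl, so that the members did not share a direction. The summed level of all 20 listed genes went from 13482 to 15462 in shRai1 and from 14129 to 17091 in shCtrl. Pdgfra went from 199.99 to 429 in shRai1 and from 515 to 304 in shCtrl, a difference of 1.86 (SE 0.175, adjusted p = 3.04e-22). Sox10 went from 42.2 to 89.9 and from 78.6 to 55.8, a difference of 1.59 (SE 0.353, adjusted p = 0.00401). Cspg4 differed by 1.16 (SE 0.207, adjusted p = 4.25e-05), Olig2 by 1.10 (SE 0.201, adjusted p = 7.22e-05) and Olig1 by 0.76 (SE 0.174, adjusted p = 0.00563). In vehicle Pdgfra stood lower in shRai1 than in shCtrl, −1.37 (SE 0.132, adjusted p = 6.02e-21), and under TTX higher, 0.50 (SE 0.115, adjusted p = 0.0482), in the authors' deposited table. Mki67, 1 of the 23 genes of the cell cycle list, went from 46 to 80.4 in shRai1 and from 89.5 to 62.6 in shCtrl, a difference of 1.32 (SE 0.321, adjusted p = 0.0127). No other gene of that list had a called difference, while Ect2 and Ncaph, which act in cell division, and the MYB-family factor gene Mybl1, none of them in it, had differences of 1.19 (SE 0.281, adjusted p = 0.00981), 1.12 (SE 0.306, adjusted p = 0.0418) and 1.21 (SE 0.277, adjusted p = 0.00583). Astrocyte markers, given here beside them, had medians of 0.00 in shRai1 and −0.20 in shCtrl, with 9 of 12 differences above 0 and 1 called, that of Glul, glutamine synthetase, at 0.40 (SE 0.104, adjusted p = 0.0263). Their median in vehicle was −0.23 for shRai1 against shCtrl. The part of glial cells in the differences was not tested. A change in the number of these cells and a change in their transcription cannot be told apart.

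Of the 35 Hist genes 33 rose in shRai1 and 20 in shCtrl, with medians of 1.07 and 0.47. Their difference was above 0 for 34 of 35 and called for 5. Hist1h1d went from 95.1 to 279 in shRai1 and from 176 to 273 in shCtrl, a difference of 0.92 (SE 0.236, adjusted p = 0.0212). The summed level went from 3738 to 7779 in shRai1 and from 5070 to 7405 in shCtrl, so that the arms differed more in vehicle than under TTX.

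Some other genes with no common list differed upward. Neat1, a long noncoding RNA that builds nuclear paraspeckles, went from 79.8 to 89.8 in shRai1 and from 121 to 54.5 in shCtrl, a difference of 1.32 (SE 0.263, adjusted p = 5.13e-04). Trp53inp1 went from 553 to 997 and from 795 to 745, a difference of 0.94 (SE 0.135, adjusted p = 3.38e-08). Gsn, an actin-severing protein, went from 201 to 308 and from 294 to 222, 1.02 (SE 0.19, adjusted p = 1.24e-04). Dhrs1, a dehydrogenase of the short-chain family, differed by 1.20 (SE 0.183, adjusted p = 3.39e-07), Kctd12, a GABA-B receptor auxiliary subunit with a shared interval, by 1.07 (SE 0.191, adjusted p = 4.25e-05) and Kank1, a regulator of actin, by 0.87 (SE 0.166, adjusted p = 2.39e-04). Fut10, a fucosyltransferase family member, differed by 1.29 (SE 0.334, adjusted p = 0.0239).

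Of the clock repressors, Per2 and Cry1 fell more in shRai1. Per2 went from 3609 to 1195 in shRai1 and from 2624 to 1554 in shCtrl, a difference of −0.84 (SE 0.142, adjusted p = 1.21e-05). Cry1 went from 1024 to 393 and from 820.2 to 575, a difference of −0.87 (SE 0.137, adjusted p = 1.13e-06). Per1, their close relative, did not differ past the threshold, from 5042 to 1645 and from 4981 to 1862, at −0.20 (SE 0.16, adjusted p = 0.941). Hlf, a PAR bZIP factor, rose in shCtrl by 0.70 (SE 0.103, adjusted p = 2.79e-10) and was at 0.17 (SE 0.0898, adjusted p = 0.149) in shRai1 in the authors' deposited table, a difference of −0.53 (SE 0.137, adjusted p = 0.0218).

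Among the other differences below 0, Lfng, which glycosylates Notch, went from 486 to 295 in shRai1 and from 368 to 454 in shCtrl, −1.02 (SE 0.183, adjusted p = 4.57e-05). Gdf10, a TGF-beta family ligand, went from 103 to 62.4 and from 63.7 to 91.8, −1.24 (SE 0.303, adjusted p = 0.0127). Tuba8, an alpha tubulin, went from 171 to 103 and from 103 to 116, −0.90 (SE 0.228, adjusted p = 0.0212). Rhpn1 rose in both arms and less in shRai1, from 62.3 to 111 and from 45.9 to 167, −1.02 (SE 0.288, adjusted p = 0.0492). Piwil2, a PIWI protein, and Cd3eap, an RNA polymerase I subunit with a shared interval, differed by −1.14 (SE 0.316, adjusted p = 0.046) and −0.90 (SE 0.248, adjusted p = 0.0454).

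Synaptic and signalling genes with a called difference below 0 had smaller values. Cnih3 differed by −0.47 (SE 0.109, adjusted p = 0.00736), with a fall in shRai1 and −0.11 (SE 0.0826, adjusted p = 0.371) in shCtrl in the authors' deposited table. Camk1g differed by −0.61 (SE 0.15, adjusted p = 0.0127), Homer2 by −0.36 (SE 0.0992, adjusted p = 0.0454) and Hdac4 by −0.38 (SE 0.106, adjusted p = 0.0492). Cacna1i, a T-type calcium channel, was not called in shRai1 and rose by 0.33 (SE 0.0776, adjusted p = 1.63e-04) in shCtrl in the authors' deposited table, a difference of −0.40 (SE 0.103, adjusted p = 0.0218). Homer1 and Homer2, 2 scaffolds that fell in both arms, thus differed between the arms in opposite directions.

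Bicuculline, which blocks GABA-A receptors and raises network firing, gives the opposite manipulation in shRai1 cultures. It shares the 3 vehicle libraries with the TTX comparison, so values are set side by side and no agreement is computed. It was called for 55.7% of the 12333 genes. Npas4 was at −3.24 under TTX and 1.44 (SE 0.213, adjusted p = 1.33e-10) under BIC as the authors deposited them. Scn4b was at 2.87 under TTX and −1.94 (SE 0.275, adjusted p = 1.86e-11) under BIC in the authors' deposited table. Acan was at −2.53 and 2.42 (SE 0.121, adjusted p = 6.93e-87) in the authors' deposited table. Inhba, a shallow fall under TTX at −0.56, was at 4.61 (SE 0.202, adjusted p = 2.07e-112) under BIC in the authors' deposited table.

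Other genes that fell under TTX were not higher under BIC. Egr3, a zinc finger factor, was at −1.82 (SE 0.176, adjusted p = 4.55e-23) and −1.71 (SE 0.177, adjusted p = 7.85e-21), and its relative Egr2 at −2.0 (SE 0.154, adjusted p = 3.81e-36) and −1.13 (SE 0.151, adjusted p = 6.40e-13), as the authors deposited them. Adamts15 was at −2.60 and −0.61 (SE 0.105, adjusted p = 5.49e-08) in the authors' deposited table. Fdps, a cholesterol synthesis enzyme, was at −0.87 (SE 0.117, adjusted p = 3.18e-12) and −0.95 (SE 0.119, adjusted p = 1.93e-14) in the authors' deposited table. The cholesterol list had a median of −0.79 under TTX and −0.40 under BIC, the immediate-early factors −1.46 and 1.08, and the neuropeptide list −0.60 and 0.93, against −0.01 and −0.03 over all genes measured.

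The share of genes that fell grew with gene length. Lengths were taken from the 9855 genes whose deposited interval is not shared. Of 946 genes under 5 kb 16.2% fell and 10.7% rose, and of 108 genes of at least 500 kb 37.0% fell and 13.0% rose, with a median log2 change of −0.17 in the longest class. The mean count moves with length, from a median of 137 in the shortest class to 6032 in the longest, and calls move with the mean count. Genes with a mean of 50 to 100 fell in 6.30% and rose in 14.9% of cases, and those of at least 1000 fell in 35.1% and rose in 12.1%.

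Among genes whose mean reached 1000, a division made after the former shares were seen, the order by length was another. The shortest class fell in 57.1% of 49 genes, the 100 to 200 kb class in 29.2% of 620 and the longest class in 41.3% of 92. Rises were rarest in the short genes, at 2.04%, against 16.3% in the 100 to 200 kb class. The part of read depth in these shares was not tested further.

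Among the longest genes Dlg2, a scaffold gene of 1358 kb, went from 30629 to 22484, −0.45 in the authors' deposited table (SE 0.109, adjusted p = 3.27e-04). Il1rapl1, a synaptic adhesion gene of 1368 kb, went from 7871 to 6226, −0.34 in the authors' deposited table (SE 0.105, adjusted p = 0.00631). Ptprd, the longest, at 2271 kb, was not called, −0.17 (SE 0.103, adjusted p = 0.208) in the authors' deposited table. Cntnap2, at 2241 kb, fell by 0.26 (SE 0.106, adjusted p = 0.043) in the authors' deposited table, with an adjusted p of 0.0585 when adjustment ran over all genes and 0.0517 after centring.

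**Figure D5:**
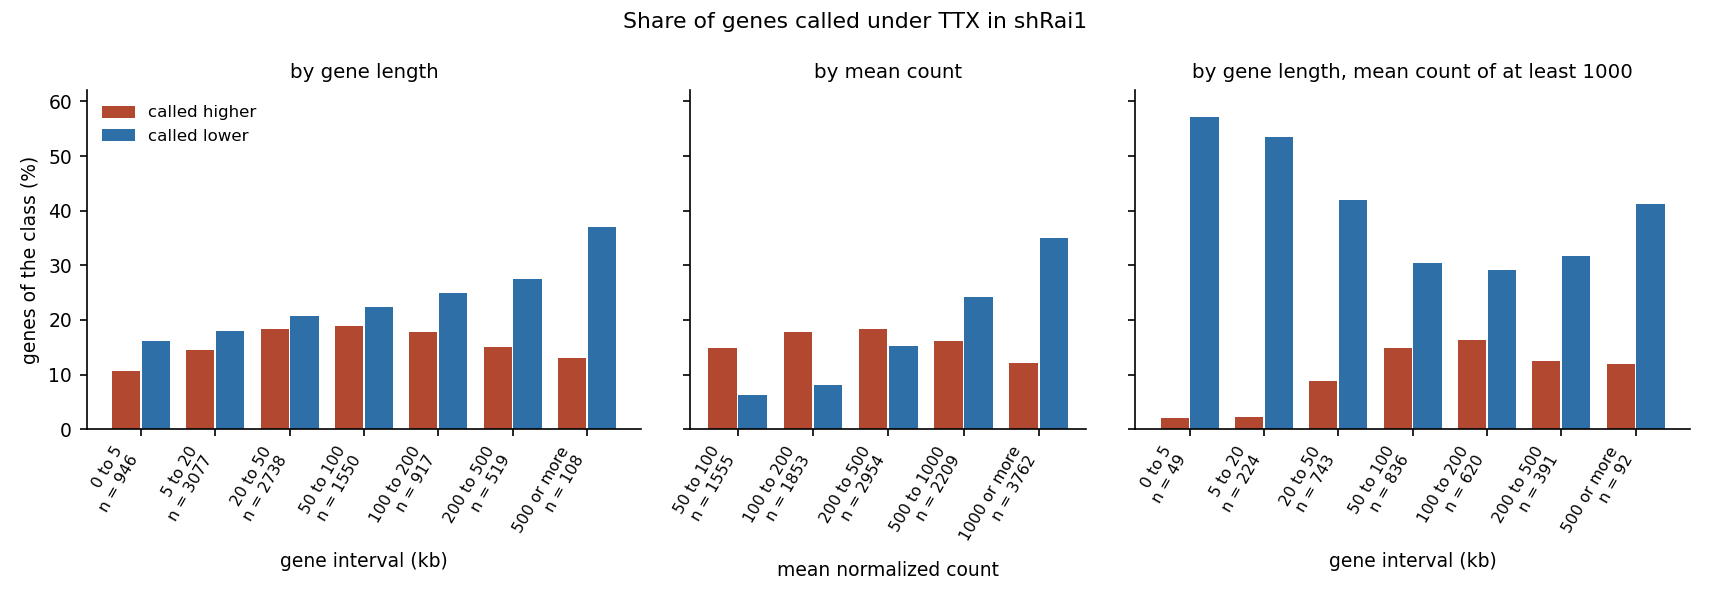
Bars give the share of genes, in percent of the class, called higher (red) or lower (blue) under TTX in shRai1, by length of the gene interval, by mean normalized count, and by length where the mean count is 1000 or more, with the number of genes under each class. The share called lower goes from 16.2% to 37.0% with length and from 6.30% to 35.1% with mean count. Where the mean count is 1000 or more it is highest in the shortest class, at 57.1%.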

How the data were processed

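Bru-seq, which sequences RNA made in the last minutes of culture, was read from tables that the authors deposited for the whole series: 7 comparison tables and 1 table of expression per group. Per the submitters' processing notes, TopHat2 2.1.0, Bowtie2 2.2.6 and DESeq2 were used with the mouse build mm9; the version of DESeq2 is not given in the sources used here. Reads were 50 bases long and stranded, per the labels. Each comparison table gives what the authors deposited per gene: a mean normalized count (signal, from counts scaled for depth by the authors), a log2 fold change and its SE, a Wald statistic (a score) and p-values with adjusted values. The FPKM table of the authors holds pooled values per group; its FPKM values were not used, and its intervals gave coordinates, lengths and shared loci. The 3 deposited FPKM columns of the knockdown arm follow other names than the comparisons and were left out, and 12 ChIP-seq samples were not analysed here.

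No value per library is in these tables, so the tests planned on libraries were replaced by the deposited ones: a gene is called at a deposited adjusted p under 0.05. Nothing in the labels says that libraries come from separate cultures beyond their being separate samples, so p-values measure the spread between these samples. Computed here were the mean level of each group (from the mean count, the log2 changes and the numbers of libraries; it carries no SD) and the difference of the TTX changes between the arms. That difference has an SE equal to the root of the summed squared SEs, a two-sided Wald p and Benjamini-Hochberg adjustment over 21192 genes. Log2 changes of genes with few reads lie near 0 in the deposited tables, with a largest size of 0.70 at mean counts under 1. One deposited table, shRai1 against shCtrl in vehicle, was matched to gene names by its mean counts, and its log2 changes close with those of the other tables to within 1e-09. Depth per library is unknown, and the mean count over the 12333 genes has a median of 469. In the test on simulated data the difference step, run on 21192 genes with 50 changed per size, recovered 36% at a log2 difference of 0.5, 88% at 1 and 100% at 1.5, with 6 false calls.

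The 33 gene lists and the genes described were chosen with earlier results of these data known. Genes are named by rule: Rai1, the 12 largest called changes per direction, up to 4 called members per list by adjusted p, and the 6 largest differences per direction with those called in opposite directions. Further genes were named after their values were seen, and some genes that the rule names are not reported here. Alternatives were other thresholds, mean count limits, adjustments, centring and weights. Promoter sequences are from RefSeq. Python 3.11.15 with pandas 2.3.3, numpy 2.4.6, scipy 1.17.1 and matplotlib 3.10.9 was used.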

Additional observations from a re-analysis of the deposited data

Results flagged for a closer look

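Each of the following named genes changed under TTX by an amount that differed between the shRai1 and shCtrl cultures, by the two-sided Wald test of the difference with adjustment over 21192 genes; the value is the log2 change in shRai1 minus that in shCtrl. Of the 9 oligodendrocyte-lineage markers 5 had a called difference above 0, with Pdgfra at 1.86, Sox10 at 1.59, Cspg4 at 1.16, Olig2 at 1.10 and Olig1 at 0.76. Of the 23 measured genes of the cell cycle list only Mki67 had a called difference, at 1.32. Mybl1 at 1.21, Ect2 at 1.19 and Ncaph at 1.12 are not in that list and were named after their values were seen. Some activity-regulated effectors, a peptide precursor and regulators of G-protein signalling were above 0, with Ptgs2 at 1.5, Scg2 at 0.85, Penk at 0.81, Syt4 at 0.66, Rgs4 at 0.64, Rgs2 at 0.59, Plk2 at 0.55 and Homer1 at 0.51. Among the Hist genes, whose single values are uncertain, Hist1h3b at 1.24, Hist1h1e at 1.14, Hist1h3e at 0.98, Hist1h1d at 0.92 and Hist1h4k at 0.84 were above 0. Other genes with a value above 0 were Neat1 at 1.32, Fut10 at 1.29, Dhrs1 at 1.20, Kctd12 at 1.07, Gsn at 1.02, Trp53inp1 at 0.94, Trib3 at 0.90, Kank1 at 0.87, Kcnj10 at 0.48 and Glul at 0.40. Below 0 were Homer2 at −0.36, Cnih3 at −0.47, Camk1g at −0.61 and Cacna1i at −0.40. Other synaptic, channel and kinase genes, among them Homer1, Syt4, Kcnj10 and Plk2, were above 0. Called or not, differences were above 0 for 1 of 20 calcium and HCN channel genes, 2 of 16 AMPA receptor genes and 19 of 60 potassium channels. For other glutamate receptors it was 5 of 18, for GABA-A receptors 5 of 13 and for scaffolds 5 of 21. For presynaptic genes it was 7 of 30 and for sodium channels 7 of 9. The median difference over all genes measured was −0.007. Also below 0 were Per2 at −0.84, Cry1 at −0.87, Hlf at −0.53 and Hdac4 at −0.38. The others were Rbfox3 at −0.40, Tuba8 at −0.90, Cd3eap at −0.90, Lfng at −1.02, Rhpn1 at −1.02, Piwil2 at −1.14 and Gdf10 at −1.24. Rbfox3 is a neuronal splicing factor, Kcnj10 and Glul are astrocyte genes for a potassium channel and glutamine synthetase, and Trib3 is a target of the integrated stress response. No group of 4 or more samples could be searched for a library that stands apart.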

How the results depend on the processing

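No called gene named in the text changed its direction when the changes were centred on their median or adjusted over all genes; Clock, not called, went to 0.00048 with centring. Adjusting the deposited p-values over all genes gave 4148 calls and adjusting over the 12333 alone gave 4614, against 4466. A threshold of 0.01 gave 3193 and one of 0.1 gave 5184. A mean count limit of 20 gave 4665 and one of 100 gave 4136. Asking in addition for a log2 change of at least 0.5 left 1658 calls, 661 higher and 997 lower. Centring the log2 changes on their median gave 4454. The called differences between the arms went from 153 to 55 at a threshold of 0.01, with 42 above 0 and 13 below, and to 216 at 0.1. Over the other alternatives they lay between 140 and 188.

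With adjustment over all genes, 6 genes named in the text passed the threshold in the deposited table and not here: Aldoc (adjusted p = 0.0556), Aqp4 (0.0591), Olig1 (0.0575) and Kank1 (0.0564) as rises, and Piwil2 (0.0575) and Cntnap2 (0.0585) as falls. With centring Cntnap2 was lost (0.0517), and Gria1 (0.0448) and Nptx1 (0.0487) were gained. Weighting the groups equally moved the computed levels of Rgs2 and Homer1 beyond their SE. At a mean count limit of 20 the medians of the sodium channel, interferon, microglial and endothelial lists moved, as more genes of each entered, and all of these but the microglial one changed sign. Centring turned the sign of the calcium and HCN channel median and of the general neuron median, both close to 0. The shares by gene length moved for 10 of 14 values when only genes with a mean of at least 1000 were kept, an alternative chosen after seeing the data; the cause was not tested. No paired analysis was possible because the deposited tables hold no value per library, and for the same reason leaving out each library was not run. The comparisons hold 3 libraries a group, or 2 for shCtrl in vehicle, and all 6 Bru-seq groups share an estimate of the spread. The median SE was 0.161 for the difference between the arms, and the simulated test recovered 36% of differences of 0.5.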
